A study of Mus musculus with 9 samples.

Results

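Genes of threonine, glycine and serine metabolism were followed in mouse pluripotent cells of 2 developmental states. The set was chosen by name, with earlier results of these data known. It holds 10 genes, Tdh, Gcat, Gldc, Amt, Shmt1, Shmt2, Phgdh, Psat1, Psph and Mthfd2, of which 7 were measured among 18193 genes tested. Tdh, Gcat and Amt were not analysed here (the 3 probe sets annotated to Gcat also carry a second gene). Where a gene had several probe sets, the one with the strongest average signal stood for it, and the others served as a check.

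RNA was hybridised to 9 Affymetrix whole-genome mouse arrays, 3 per group, labelled as biological replicates, and values are the authors' log2 signals. Epiblast stem cells (EpiSC), which stand for the primed epiblast after implantation, were cultured with vehicle or with IWP2, which blocks Porcupine, the enzyme that acylates Wnt proteins before their secretion. Both EpiSC groups grew in N2B27 medium with Activin A (20 ng/ml) plus bFGF (12 ng/ml) on plates coated with gelatine and serum. Embryonic stem cells (ESC), the naive state, grew on gelatine in N2B27 medium with LIF (1000 U/ml) plus Wnt3a (250 ng/ml). The treatment protocol also speaks of Wnt3a given later than IWP2, and that the EpiSC arrays used here had none is taken from their titles, which name vehicle or IWP2 alone. All are labelled C57BL/6. Cell state and medium changed together in the ESC comparisons and cannot be told apart. How many cell lines stand behind each group, and at what dose and for how long IWP2 was given, is not stated in the labels, so the p-values measure only the spread between these replicates.

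Serine is made from the glycolytic intermediate 3-phosphoglycerate in 3 steps, by the dehydrogenase Phgdh, the aminotransferase Psat1 and the phosphatase Psph. The serine hydroxymethyltransferases Shmt1 (cytosol) and Shmt2 (mitochondria) turn serine into glycine and load folate with a one-carbon unit, which Mthfd2 oxidises further in mitochondria for purine and thymidylate synthesis. The glycine cleavage system, with Gldc as its glycine decarboxylase and Amt as its aminomethyltransferase, breaks glycine down and also loads folate. Mouse ESC are known to depend on threonine, which Tdh and Gcat turn into glycine and acetyl-CoA and which feeds one-carbon metabolism and histone methylation.

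The 250 bases before the RefSeq start of the 4 genes with the largest ESC differences are shown because these genes moved in opposite directions. Phgdh and Mthfd2 were lower in ESC and Shmt1 and Gldc higher. Sequences are from RefSeq (GRCm38.p6), written 5′ to 3′ on the gene's strand, which is the minus strand for all 4. The start listed for Mthfd2 lies inside its annotated gene span, which also covers transcripts that begin further upstream. Capitals mark CCAAT on either strand, the CCAAT box bound by NF-Y, a motif that was searched after the sequences had been read.
Phgdh (chr3:98339970-98340219): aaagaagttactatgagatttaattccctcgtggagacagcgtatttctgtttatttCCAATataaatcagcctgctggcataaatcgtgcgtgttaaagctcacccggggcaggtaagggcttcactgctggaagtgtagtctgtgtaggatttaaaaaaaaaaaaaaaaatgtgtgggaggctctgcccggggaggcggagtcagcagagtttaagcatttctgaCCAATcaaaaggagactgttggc
Mthfd2 (chr6:83317605-83317854): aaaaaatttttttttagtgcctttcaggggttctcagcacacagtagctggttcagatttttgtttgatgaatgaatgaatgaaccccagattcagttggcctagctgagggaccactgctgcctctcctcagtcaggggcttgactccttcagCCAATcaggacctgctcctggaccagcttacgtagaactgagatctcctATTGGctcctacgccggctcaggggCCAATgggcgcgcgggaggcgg
Shmt1 (chr11:60811266-60811515): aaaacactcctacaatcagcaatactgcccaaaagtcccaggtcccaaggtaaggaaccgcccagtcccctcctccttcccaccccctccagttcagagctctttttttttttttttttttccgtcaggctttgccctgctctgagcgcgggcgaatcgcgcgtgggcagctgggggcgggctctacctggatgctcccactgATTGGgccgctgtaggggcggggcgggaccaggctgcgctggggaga
Gldc (chr19:30175442-30175691): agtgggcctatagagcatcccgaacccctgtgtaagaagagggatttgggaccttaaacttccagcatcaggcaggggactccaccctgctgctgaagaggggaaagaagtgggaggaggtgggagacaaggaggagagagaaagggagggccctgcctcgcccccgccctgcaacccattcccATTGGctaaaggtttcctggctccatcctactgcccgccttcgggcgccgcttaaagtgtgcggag
CCAAT began 23 and 193 bases before the start of Phgdh. In Mthfd2 there were 3 matches, 22, 47 and 96 bases before the start. Shmt1 had 1 match at 47 bases and Gldc 1 at 66 bases, both on the opposite strand. The motif was thus present upstream of genes that were lower and of genes that were higher in ESC. Of the 7 measured members 6 had it in at least 1 window, all but Shmt2. Counted by window, it was in 6 of the 8 windows of these members and in 33.8% of 32851 such windows of RefSeq genes. As the motif was picked after these sequences had been read, the comparison is no test. TGATGNAA, the core of the amino acid response element, and CACGTG, the E-box, were found on neither strand in the windows of the 7 measured members, and in 3.45% and 6.02% of all windows.

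The arrays fell clearly into their groups. Replicates correlated at 0.997 to 0.998 over all probe sets, vehicle with IWP2 arrays at 0.982 to 0.985 and EpiSC with ESC arrays at 0.927 to 0.931. All 7 naive markers were higher in ESC than in vehicle EpiSC, all 5 primed markers were lower, and Pou5f1, Sox2 and Nanog lay above the median of all values (5.24) in each group. The actin controls, a sign of RNA quality, read higher at the 3' than at the 5' end by 0.53 to 0.59 log2 units with vehicle and by 0.64 to 0.69 in the other groups; the part of this in the results was not tested. The 7 members had group means of 8.77 to 12.41, well above that median, so none of their differences was limited by the floor of the array. Their SD between replicates was 0.023 to 0.17 in vehicle EpiSC, 0.032 to 0.15 with IWP2 and 0.0095 to 0.066 in ESC.

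**Figure D1:**
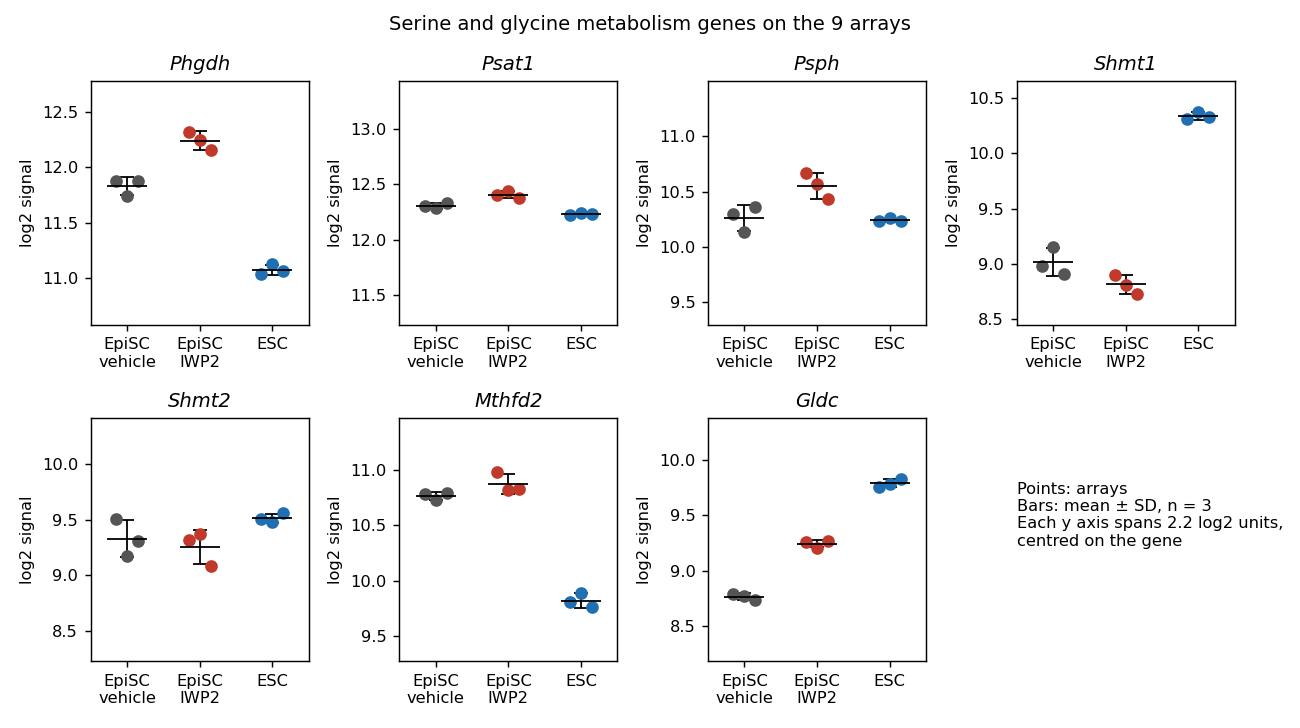
Log2 signal of the 7 measured genes on each array (points) with the group mean ± SD (n = 3), each panel on an axis of equal span. Phgdh and Mthfd2 are lowest in ESC, Shmt1 and Gldc are highest there, and Psat1 stays between 12.22 and 12.44 on all arrays.

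Serine synthesis began with the clearest pattern. Phgdh (chr3:98313171-98339969), the first enzyme of the route, rose with IWP2 and was lowest in ESC. Its log2 signals were 11.88, 11.74 and 11.88 on the vehicle arrays, 12.32, 12.25 and 12.15 with IWP2, and 11.04, 11.13 and 11.06 in ESC. The 3 groups did not overlap. IWP2 raised it by 0.41 ± 0.066 (SE), a 1.33-fold change (limma adjusted p = 0.00107). ESC lay below vehicle EpiSC, at -0.76 ± 0.066 (adjusted p = 3.8e-06), and below IWP2-treated EpiSC at -1.17 ± 0.066 (adjusted p = 1.28e-07), so that the signal with IWP2 was 2.25-fold that of ESC. All 4 probe sets of Phgdh were called in the same directions in all 3 comparisons, with 0.29 to 0.41 for IWP2 minus vehicle and -0.65 to -0.84 for ESC minus vehicle. All 4 end in _x_at, which marks probes that may also match other transcripts.

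Psat1 (chr19:15905123-15925059), the second enzyme, hardly moved. Its signals were 12.30, 12.28 and 12.33 with vehicle, 12.40, 12.44 and 12.38 with IWP2, and 12.22, 12.24 and 12.23 in ESC. The groups did not overlap, yet the gaps were small. IWP2 minus vehicle was 0.10 (95% confidence interval -0.0059 to 0.21, adjusted p = 0.136) and ESC minus vehicle -0.072 (-0.18 to 0.037, adjusted p = 0.212), neither of them called. ESC were lower than IWP2-treated EpiSC by a called difference, -0.18 ± 0.049 (adjusted p = 0.0101). The second probe set gave -0.13 for the same comparison and was not called.

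Psph (chr5:129765558-129787443), the last enzyme, rose with IWP2 and did not differ detectably between ESC and vehicle EpiSC. The vehicle arrays gave 10.30, 10.13 and 10.36, the IWP2 arrays 10.66, 10.56 and 10.43, and the ESC arrays 10.23, 10.26 and 10.24. The IWP2 arrays lay above all others, while ESC fell within the vehicle range. The rise with IWP2 was 0.29 ± 0.077, or 1.22-fold (limma adjusted p = 0.0163). It lost its call without vehicle replicate 2 (0.22, adjusted p = 0.0554) and without IWP2 replicate 1 (0.24, adjusted p = 0.0576). ESC minus vehicle was -0.020 (95% confidence interval -0.19 to 0.15, adjusted p = 0.828), and ESC minus IWP2 was -0.31 ± 0.077 (adjusted p = 0.00558).

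Of the hydroxymethyltransferases, Shmt1 (chr11:60788897-60811265), the cytosolic enzyme, was higher in ESC. Its signals were 8.99, 9.16 and 8.91 with vehicle, 8.90, 8.81 and 8.73 with IWP2, and 10.31, 10.37 and 10.33 in ESC. ESC stood more than 1 log2 unit above every EpiSC array, while the 2 EpiSC groups lay side by side without overlap. ESC minus vehicle was 1.32 ± 0.074, or 2.49-fold (limma adjusted p = 1.27e-07), and ESC minus IWP2 was 1.52 ± 0.074, or 2.87-fold (adjusted p = 4.08e-08). IWP2 minus vehicle was -0.20 (95% confidence interval -0.37 to -0.037, adjusted p = 0.0612) and was not called. It was called without vehicle replicate 3 (-0.26, adjusted p = 0.0348) and without IWP2 replicate 1 (-0.25, adjusted p = 0.0493). The same held with 32 added to the linear signals (adjusted p = 0.0333), with trend and robust variances (0.0126) and with array weights (0.0462).

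The size of the Shmt1 difference rests on the probe set. For ESC minus vehicle, fitted over all probe sets with 1 symbol, 1425179_at gave the 1.32 above and 1422198_a_at gave 1.27. Another, 1425178_s_at, gave 0.43, also called, and the fourth, 1425177_at, gave -0.068 and was not called (adjusted p = 0.415). The last 2 measured levels of 8.55 and 9.06 in vehicle EpiSC, so neither was near the floor. Which transcripts each probe set reads was not examined.

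Shmt2 (chr10:127517123-127522444), the mitochondrial enzyme, changed little. It gave 9.51, 9.17 and 9.31 with vehicle, 9.32, 9.37 and 9.08 with IWP2, and 9.51, 9.48 and 9.56 in ESC. The EpiSC groups overlapped each other, and vehicle replicate 1 lay within the ESC range. IWP2 minus vehicle was -0.073 (95% confidence interval -0.29 to 0.15, adjusted p = 0.616) and ESC minus vehicle 0.18 (-0.035 to 0.40, adjusted p = 0.121). ESC minus IWP2 was called at 0.26 ± 0.098, or 1.20-fold (limma adjusted p = 0.0429). That call was lost without IWP2 replicate 3 (0.17, adjusted p = 0.156), and without IWP2 replicate 1 (0.29), vehicle replicate 3 (0.26) or any ESC replicate (0.24 to 0.28), with adjusted p of 0.057 to 0.106. For ESC minus vehicle 2 of the 4 probe sets were called higher, and leaving out vehicle replicate 1 gave a called 0.27 (adjusted p = 0.0316). The difference between Shmt1 and Shmt2 in their changes was not tested.

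Mthfd2 (chr6:83305704-83326011), the mitochondrial methylene-tetrahydrofolate dehydrogenase, was lower in ESC. Its signals were 10.78, 10.73 and 10.80 with vehicle, 10.98, 10.82 and 10.83 with IWP2, and 9.81, 9.89 and 9.76 in ESC. All ESC arrays lay below all EpiSC arrays, and the EpiSC groups were separated by a narrow gap. ESC minus vehicle was -0.95 ± 0.064, so that vehicle EpiSC had 1.93-fold the signal of ESC (limma adjusted p = 5.45e-07). ESC minus IWP2 was -1.06 ± 0.064 (adjusted p = 2.16e-07). IWP2 minus vehicle was 0.11 (95% confidence interval -0.035 to 0.25, adjusted p = 0.23) and was not called. Both probe sets gave the same calls, with -0.80 from the second for ESC minus vehicle.

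Gldc (chr19:30098441-30175441), the decarboxylase of the glycine cleavage system, rose with IWP2 and was highest in ESC. It gave 8.79, 8.78 and 8.73 with vehicle, 9.26, 9.21 and 9.27 with IWP2, and 9.76, 9.78 and 9.83 in ESC. The IWP2 arrays lay about midway between the others. IWP2 raised Gldc by 0.48 ± 0.051, or 1.39-fold (limma adjusted p = 8.46e-05). ESC exceeded vehicle EpiSC by 1.02 ± 0.051, or 2.03-fold (adjusted p = 5.46e-08), and IWP2-treated EpiSC by 0.55 ± 0.051 (adjusted p = 6.11e-06). Gldc has 1 probe set, so no second reading was at hand.

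**Figure D2:**
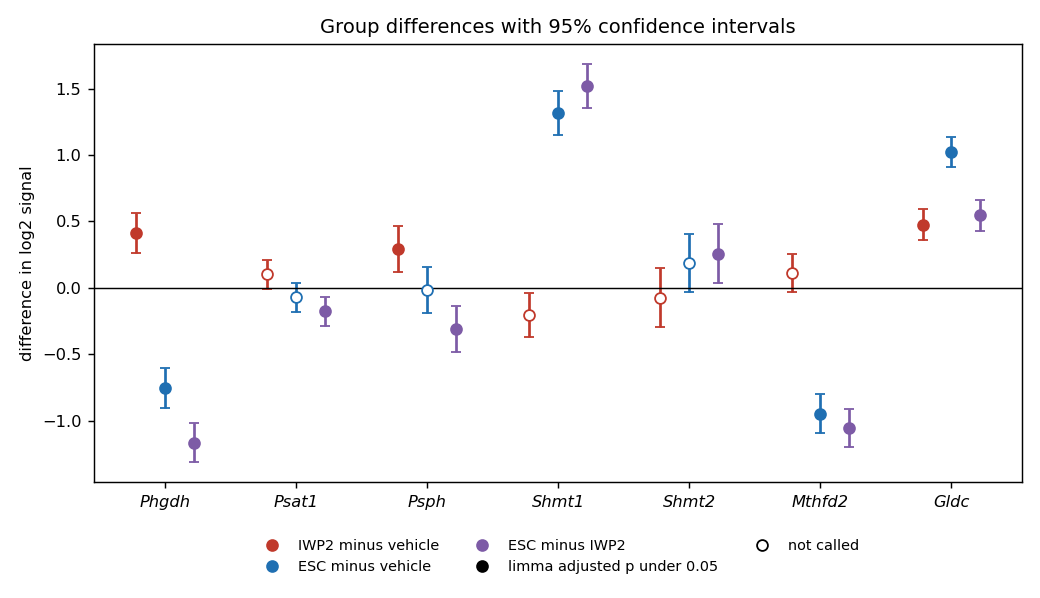
Differences in log2 signal between groups for the 7 measured genes, with 95% confidence intervals from limma (n = 3 per group), filled where the adjusted p was under 0.05. Phgdh, Psph and Gldc are the filled points for IWP2 minus vehicle, and Shmt1 reaches 1.52 for ESC minus IWP2.

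With IWP2, 3 of the 7 members rose (Phgdh, Psph and Gldc) and 0 fell. Of all genes tested, 33.5% were called, 16.6% higher and 16.8% lower. Among the 11006 genes with a mean at or above the median of all values, 5845 were called, 2888 higher and 2957 lower. In that fit 4 of the 7 members were called, 3 higher and 1, Shmt1, lower (limma adjusted p = 0.0318). With arrays centred on their medians the calls over all genes became 4677 higher and 2304 lower, in place of 3029 and 3065, and 5 members were called higher. No member changed by 2-fold or more, as 3.72% of genes did. The arrays of the 2 groups did not overlap for 6 of 7 members and for 47% of genes. The median difference was 0.11 over the members and 0.033 over all genes.

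In the same comparison 7 of 8 markers of definitive endoderm fell. Their summed signal on the linear scale was 4875 to 5121 on vehicle arrays and 157 to 172 on IWP2 arrays, with 7 of the 8 below the median of all values after IWP2. Of 8 fibroblast or feeder markers 3 fell and 2 rose, with sums of 578 to 806 and 397 to 466. Of 5 neural markers 2 rose and 1 fell, with sums of 440 to 486 and 623 to 676. The part of such cells in the differences of Phgdh, Psph and Gldc was not tested, and in bulk RNA fewer cells of a type and less RNA per cell cannot be told apart. ESC had definitive endoderm sums of 202 to 225 and fibroblast sums of 208 to 216. Primed markers changed with IWP2 as well. Of these 5, 3 fell and 0 rose, with sums of 20096.3 to 22087.5 with vehicle and 10554.2 to 10949.9 with IWP2. Of Pou5f1, Sox2 and Nanog 2 rose and 1 fell. Of the 7 naive markers 1 rose and 2 fell, with sums of 195 to 206 with vehicle and 167 to 179 with IWP2. In ESC the naive sums were 20317 to 20891. The part of these changes in the member differences was not tested.

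For ESC minus vehicle, 4 of 7 members were called, with Shmt1 and Gldc higher and Phgdh and Mthfd2 lower. Over all genes 66.6% were called, 38.7% higher and 27.9% lower. Among the 11006 genes with a mean at or above the median of all values, 8743 were called, 4193 higher and 4550 lower. Under that filter 4 members were likewise called. Differences of at least 2-fold were called for 2 members (Shmt1 and Gldc) and for 16.5% of genes, and the arrays did not overlap for 5 of 7 members and 71% of genes. The median over all genes was 0.12 and over the members -0.020. Centring arrays on their medians moved the former to 0.24 and the split of calls from 7045 higher and 5078 lower to 9621 and 4216. Relative to the median of all genes, a measure that such a shift leaves in place, the differences were 1.20 for Shmt1, 0.90 for Gldc, -0.88 for Phgdh, -1.07 for Mthfd2, 0.064 for Shmt2, -0.14 for Psph and -0.19 for Psat1.

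ESC and IWP2-treated EpiSC differed in all 7 measured members, against 62.1% of all genes. The members all lay well above the median of all values, and the share called among such genes is not given for this comparison. Shmt2 was only just called (limma adjusted p = 0.0429), and leaving out 1 array gave 6 to 7 members called. Shmt1, Gldc and Shmt2 were higher in ESC and Phgdh, Mthfd2, Psph and Psat1 lower, against 35.2% and 26.9% of genes. Shmt1, Phgdh and Mthfd2 differed by at least 2-fold, as 17.3% of genes did. No member overlapped between these groups, and 67.1% of genes did not. The ESC minus vehicle and ESC minus IWP2 comparisons share the ESC arrays, and both vehicle comparisons share the vehicle arrays. For Gldc, IWP2 and ESC arrays lay on the same side of vehicle (0.48 and 1.02), whereas for Phgdh they lay on opposite sides (0.41 and -0.76).

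**Figure D3:**
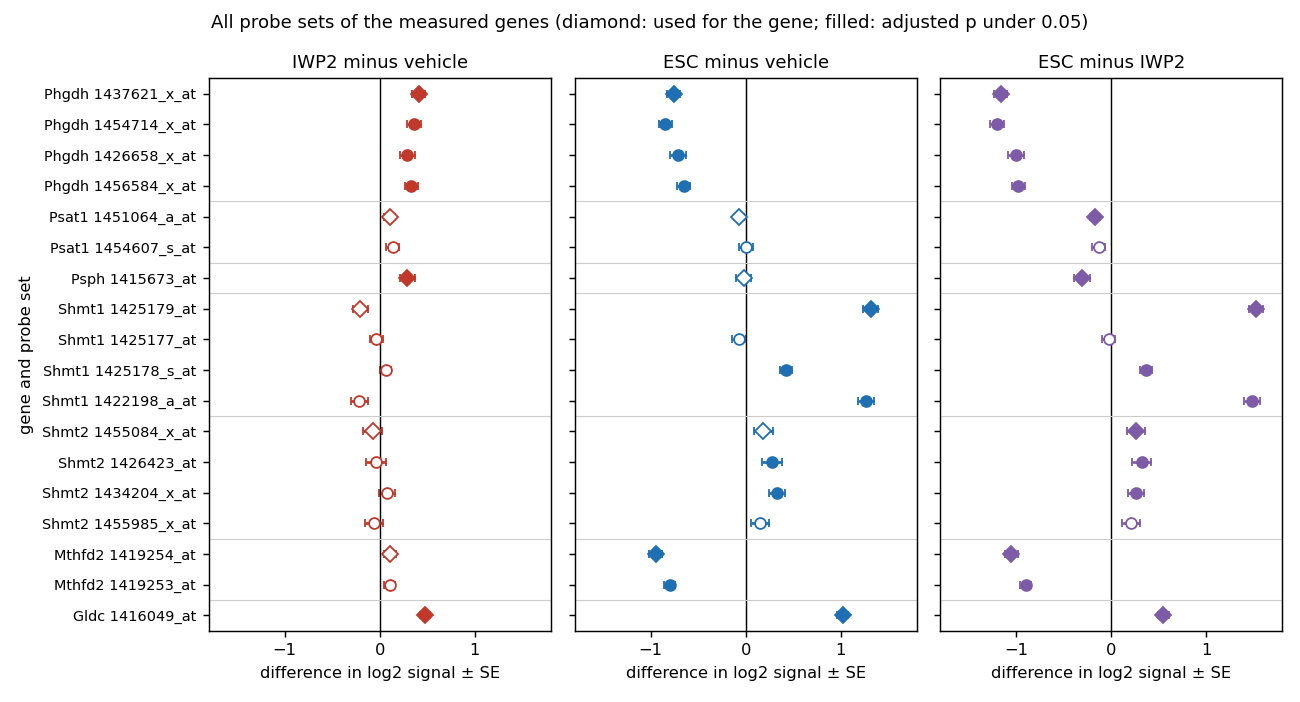
Differences in log2 signal ± SE for all 18 probe sets of the 7 genes, fitted among all named probe sets; diamonds are the sets used for the gene and filled symbols have a limma adjusted p under 0.05. The 4 Phgdh sets lie together, while the 4 Shmt1 sets run from -0.068 to 1.32 for ESC minus vehicle.

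Further genes of these pathways were taken from 7 lists of 67 genes, 61 of them measured. With IWP2, 12 rose, 9 fell and 40 were not called, so 34.4% were called, close to the 33.5% of all genes. For ESC minus vehicle 27 were higher and 22 lower, 80.3% in all against 66.6%. With arrays centred on their medians 32 were higher and 13 lower, and the share called, 73.8%, no longer exceeded that of all genes, 76.1%. For ESC minus IWP2 26 were higher and 17 lower, 70.5% against 62.1%. The lists were also set against genes with a mean at or above the median of all values. For ESC minus vehicle 41 of 47 pathway genes (20 higher, 21 lower) and 8743 of 11006 genes (4193 higher, 4550 lower) were then called. For IWP2 minus vehicle these counts were 22 of 47 and 5845 of 11006. The counts of single lists stand beside the shares of all genes given above, 16.6% higher and 16.8% lower with IWP2, 38.7% and 27.9% for ESC minus vehicle, and 35.2% and 26.9% for ESC minus IWP2, where the median over all genes was 0.096.

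Beside Gldc, the glycine cleavage system needs the hydrogen carrier protein Gcsh and the dehydrogenase Dld. Gcsh was at 11.58 ± 0.085 with vehicle, 11.26 ± 0.022 with IWP2 and 12.22 ± 0.0072 in ESC (mean log2 signal ± SD, n = 3). Like Gldc it was highest in ESC, by 0.64 over vehicle (adjusted p = 4.19e-06) and 0.96 over IWP2, but IWP2 lowered it by a called difference (-0.33, adjusted p = 0.00171), where Gldc rose. Dld was not called in any comparison, and for ESC minus vehicle 1 of its 2 probe sets was called higher, opposite in sign to the -0.022 of the set used.

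Folate enzymes split in ESC. Of 12 measured, 6 were higher than in vehicle EpiSC, 4 lower and 2 not called, with a median of 0.23. With arrays centred 7 were higher and 3 lower, and Mthfd1l (-0.25) lost its call. The call of Mtfmt (0.18, limma adjusted p = 0.0468) was lost without several single arrays. Tyms (-0.52) was called lower with 1 of 4 probe sets and not when these were averaged. Mthfd2l, a mitochondrial relative of Mthfd2, showed the widest gap among the lower ones, from 9.13 ± 0.16 in vehicle EpiSC to 5.66 ± 0.12 in ESC (SD, n = 3), a difference of -3.47. Mthfd1, the cytosolic trifunctional enzyme, was also lower in ESC (-0.59). Aldh1l2, the mitochondrial formyl-tetrahydrofolate dehydrogenase (1.57), and Fpgs, which adds glutamates to folate (0.94), were higher.

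With IWP2 3 of these 12 were called, against 33.5% of all genes. Mthfd1 rose from 11.81 ± 0.036 to 12.27 ± 0.046 and Aldh1l2 from 5.08 ± 0.26 to 5.94 ± 0.20, Ggh, which removes glutamates, fell (-0.44), and 9 were not called. For ESC minus IWP2, 7 were higher, 4 lower and 1 not called, led by Aldh1l1 (1.83) and Fpgs (0.84) above and Mthfd2l (-3.72) and Mthfd1 (-1.05) below. Aldh1l1 started from a low level, 4.39 with IWP2, and only 1 of its 2 probe sets was called higher. Mthfd1 thus followed the order of Phgdh, with IWP2 highest and ESC lowest.

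Among 6 carriers of folate and serine, the folate receptor gene Folr1 stood out, from 5.86 ± 0.097 in vehicle EpiSC and 5.74 ± 0.054 with IWP2 to 9.95 ± 0.070 in ESC (SD, n = 3). It was higher in ESC by 4.10 against vehicle and by 4.21 against IWP2. In all 4 of the 6 were higher in ESC than in vehicle EpiSC, among them the proton-coupled folate carrier Slc46a1 (1.67), and 2 were lower. The lower ones were the reduced folate carrier Slc19a1 (-0.27, and -0.14 with arrays centred, not called), for which 1 of 3 probe sets was called the other way, and the mitochondrial serine carrier Sfxn1. The Sfxn1 difference was -0.13 (adjusted p = 0.0497) and lost its call when any vehicle replicate, any ESC replicate or IWP2 replicate 1 or 2 was left out (-0.11 to -0.15). With arrays centred the Sfxn1 difference was -0.0096 and not called. Against IWP2, 4 were higher (Slc46a1 at 1.89) and 0 lower. With IWP2, Slc19a1 fell (-0.41, adjusted p = 0.000838). Slc46a1 was also called lower (-0.22), but not without vehicle replicate 2 (-0.24) or 3 (-0.18) or IWP2 replicate 1 (-0.19) or 3 (-0.23), and 4 carriers were not called.

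The methionine cycle takes one-carbon units on to S-adenosylmethionine, and transsulfuration joins serine to homocysteine. Of 11 measured genes, 7 were higher in ESC than in vehicle EpiSC and 0 lower, against 38.7% and 27.9% of all genes, the median being 0.52 against 0.12. Mtr, methionine synthase, was higher by 0.74 and Bhmt, a betaine-dependent methyltransferase, by 1.88 from a level of 3.42, below the lower quartile of all values (3.72), where differences are compressed. Only 1 of the 2 probe sets of Mtr was called higher, and over all alternatives its difference ran from 0.28 to 0.86. Against IWP2 Mtr was not called (0.069), and 1 of its 2 probe sets was called lower. IWP2 raised Mtr (0.67) and Mat2b, a regulatory subunit of methionine adenosyltransferase (0.55), and lowered the spermidine synthase gene Srm (-0.64), with 3 of 11 higher, 1 lower and 7 not called. For ESC minus IWP2, 6 were higher, led by Srm (1.56) and Bhmt (1.90), 2 were lower, Cth, the cystathionine lyase (-0.66), and Mat2b (-0.42), and 3 were not called.

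Other enzymes of serine, glycine and threonine went both ways. In ESC minus vehicle 5 of 12 were higher, 4 lower and 3 not called. Gatm, which uses glycine for creatine synthesis, was at 5.65 ± 0.0097 with vehicle, 6.47 ± 0.041 with IWP2 and 2.69 ± 0.14 in ESC (SD, n = 3), the last at the floor, so its -2.96 is better read as a lower limit in size. The listed ketone body enzyme Bdh1, which does not act on these amino acids, was also lower (-0.55). Dmgdh, which forms sarcosine (1.67, from a level of 3.84 in vehicle EpiSC), and Alas1, which uses glycine for haem (0.77), were higher.

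With IWP2 4 of these 12 rose, among them Gatm (0.82) and Bdh1 (0.66), and 1 fell, Gamt, the next enzyme of creatine synthesis (-0.54). Against IWP2, ESC were higher for 5, among them Dmgdh (1.47) and Alas1 (0.72), and lower for 4, among them Gatm (-3.78) and Bdh1 (-1.21), with 3 not called. Gatm had the order of IWP2, vehicle and ESC from high to low, as had Phgdh, Mthfd1 and others. With calls in every comparison it was also seen for Bdh1 (9.72, 9.07 and 8.52) and Pipox (8.04, 7.50 and 7.09). The same held for the listed transporters Slc1a4 and Slc36a4. The share of all genes in this order was not counted.

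Genes listed as transporters of these amino acids split as 5 of 8 lower in ESC than in vehicle EpiSC, 2 higher and 1 not called, against 27.9% and 38.7% of all genes, with a median of -0.36. They were listed by name, and whether each, Slc36a4 among them, carries serine, glycine or threonine was not examined. Of the lower ones Slc38a2 (-0.25) had 1 of 3 probe sets called the other way, stood at -0.018 when these were averaged, and lost its call with arrays centred and without vehicle replicate 1 or 2 or ESC replicate 2. Slc1a5, which carries neutral amino acids such as glutamine, serine and threonine, fell from 8.82 ± 0.12 in vehicle EpiSC to 6.63 ± 0.12 in ESC (SD, n = 3), a difference of -2.19, while IWP2-treated EpiSC stood at 8.96. Only 1 of its 2 probe sets was called lower, and their mean differed by -1.01. Slc36a4 was lower too (-2.34), and as it reached the floor in ESC (3.57) its differences are lower limits in size. The calls of Slc36a1 (0.26) and Slc7a10 (0.43) were lost without single arrays. These were vehicle replicate 1 (0.21) and ESC replicates 1 (0.23) and 2 (0.19) for Slc36a1, and vehicle replicates 2 (0.40) and 3 (0.37) and ESC replicate 1 (0.30) for Slc7a10. IWP2 raised Slc1a4 (0.28) and Slc36a4 (0.44) and lowered Slc38a1 (-0.61), whose value shrank to an uncalled -0.071 once sets ending in _x_at or _s_at were dropped. For ESC minus IWP2, 3 were lower, led by Slc1a5 (-2.33) and Slc36a4 (-2.78), 1 was higher, Slc36a1 (0.36), and 4 were not called.

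Amino acid response genes, many of which share the factor Atf4 with Phgdh, Psat1, Psph, Shmt2 and Mthfd2 as known regulator, gave counts that depended on the scaling. Against vehicle EpiSC 7 of 10 were lower in ESC, 2 higher and 1 not called (median -0.26), but with arrays centred only 2 were lower, 2 higher and 6 not called. Atf4, Chac1, Trib3, Slc7a11 and Slc3a2 lost their calls. The set used for Atf4 gave -0.21, 1 of its 3 probe sets was called the other way, and their mean was 0.00084. Chac1, Trib3 and Slc7a11 also lost theirs without vehicle replicate 1 or 2 or ESC replicate 1, among others, and over all alternatives ran from -0.58 to -0.30, from -0.49 to -0.17 and from -0.69 to -0.12. Slc7a5, a neutral amino acid transporter, was lower (-0.59), as was the factor gene Cebpb (-0.42), and Asns, asparagine synthetase (0.32), and the stress sensor Sesn2 (0.24) were higher. With IWP2 1 rose, 2 fell and 7 were not called. Slc7a11, the cystine carrier, fell (-0.59) and so did Sesn2 (-0.33). For each of them only 1 of 2 probe sets was called lower. Slc7a11 went from 4.94 with vehicle to 4.36 with IWP2, below the median of all values (5.24). Asns rose by 0.21 (adjusted p = 0.0359), a call lost without vehicle replicate 2 (0.14), any IWP2 replicate (0.19 to 0.24) or ESC replicates 1 or 2 (0.21). For ESC minus IWP2, 4 were lower, led by Slc7a5 (-0.72) and Slc3a2 (-0.40), and 2 were higher, Sesn2 (0.57) and Slc7a11 (0.33), the latter not called without IWP2 replicate 1 (0.24) or ESC replicate 3 (0.26) and with 1 of 2 probe sets called the other way.

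**Figure D4:**
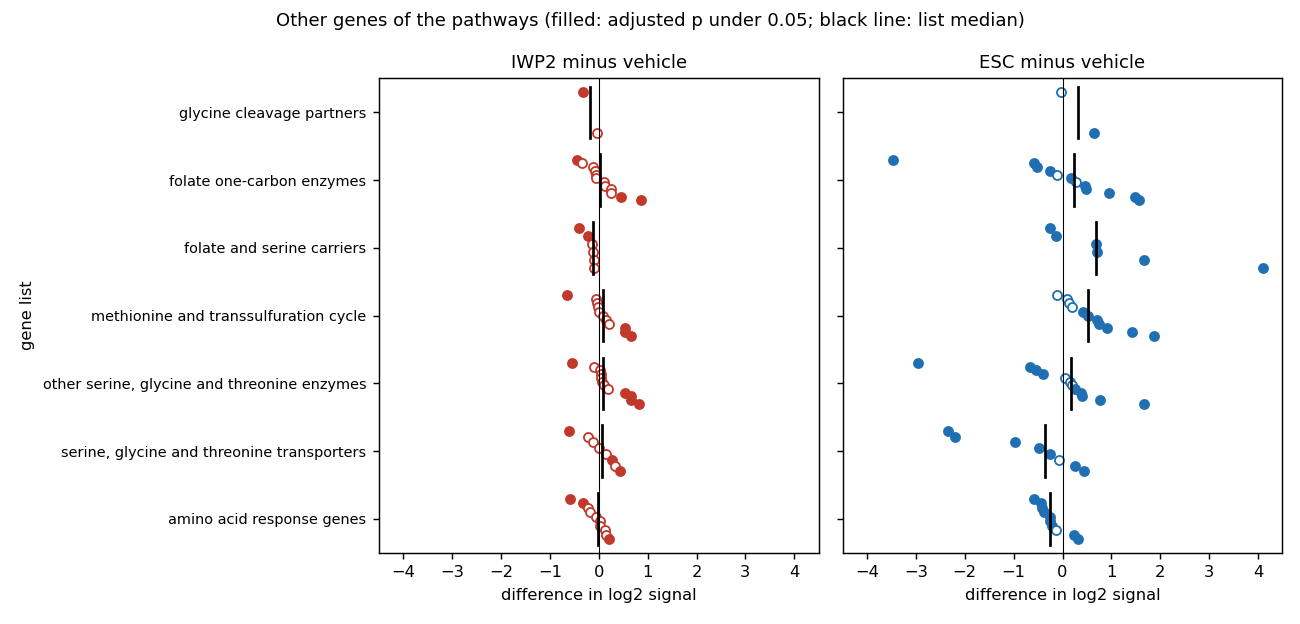
Differences in log2 signal of 61 further genes in 7 lists, for IWP2 minus vehicle (left) and ESC minus vehicle (right), with points filled where the limma adjusted p was under 0.05 and list medians as black lines. The spread is wider for ESC, from Mthfd2l at -3.47 to Folr1 at 4.10.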

How the data were processed

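The authors deposited log2 signals of 45101 probe sets on 9 arrays. RMA and limma are named, with no version, in the submitters' processing notes. RMA equalises the distribution of signals between arrays and so hides shifts in the total RNA of a cell. The number of arrays, 3 per group, limits the precision.

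Probe sets with 1 gene symbol in the platform annotation (34945) were used, and the one with the highest mean stood for its gene (18193 genes). Coordinates and upstream sequences are from RefSeq, GRCm38.p6. limma 3.58.1 (lmFit and eBayes, R 4.3.3) was fitted with 1 mean per group to the 9 arrays together, two-sided, with Benjamini-Hochberg adjustment over all genes. A gene is called at an adjusted p under 0.05, and 2-fold means a log2 difference of at least 1. The median standard error was 0.082.

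The members and lists were chosen with earlier results of these data known. All members are named, and of each list up to 2 called genes per direction and comparison with the smallest p. Further genes are named where a limit or a shared order is given. A search for genes patterned like Tdh was planned and not run, since Tdh was not analysed here. The 6 listed pathway genes without a value were not analysed here. Alternatives concerned probe set choice, low signals, normalization, variance model, arrays in the fit, a replicate block, a stricter threshold and leaving out each array.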

Additional observations from a re-analysis of the deposited data

How the results depend on the processing

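Of 471 alternative values for single members, 428 kept their direction and side of the threshold, 15 lost a call, 17 gained one and 11 changed sign. Sign changes of uncalled values were small. For IWP2 minus vehicle, Shmt2 ran from -0.15 without vehicle replicate 2 to 0.017 without vehicle replicate 1, was 0.013 without IWP2 replicate 3 and 0.076 with probe set 1434204_x_at, and Shmt1 was 0.061 with 1425178_s_at. For ESC minus vehicle, Psph was 0.0027 with cyclic loess and 0.10 with arrays centred on the median and ran from -0.086 without vehicle replicate 2 to 0.027 without vehicle replicate 3, and Psat1 was 0.049 with arrays centred and 0.0052 with 1454607_s_at. The called Shmt1 differences changed sign with 1425177_at, to -0.068 for ESC minus vehicle and -0.031 for ESC minus IWP2. With IWP2, the members called were 5 in place of 3 with 32 added to the linear signals and with trend and robust variances. Each time 4 were higher and 1, Shmt1, was lower. With arrays centred they were 5, all higher. Without Phgdh, which has no other probe sets once those ending in _x_at or _s_at are left out, they were 2 of 6. Genes called for IWP2 minus vehicle were 3886 at an adjusted p under 0.01, in place of 6094. Leaving out 1 array gave 2 to 4 members called for IWP2 minus vehicle, 4 to 5 for ESC minus vehicle and 6 to 7 for ESC minus IWP2, and 4949 to 5965, 11077 to 12115 and 10565 to 11323 genes. Replicate numbers did not pair the arrays, since deviations of same-numbered arrays correlated at -0.060 to 0.051. With a replicate block 5754, 12024 and 11138 genes and 3, 4 and 6 members were called, and Shmt2 lost its call for ESC minus IWP2 (adjusted p = 0.0517). The causes of these shifts were not tested.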
